A study of Mus musculus with 7 samples.

Results

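Olfactory and vomeronasal receptor genes were examined on arrays of astrocyte RNA, where these genes are expected to be silent. The members were the probe sets of the authors' deposited fold change table whose symbol begins with Olfr or Vmn. They came to 124 of the 1778 probe sets in that table and of the 22206 transcript cluster probe sets measured. Of the 124, 75 were odorant receptors (Olfr), 36 were vomeronasal type 1 receptors (Vmn1r) and 13 were vomeronasal type 2 receptors (Vmn2r).

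Gene expression was measured in purified mouse astrocytes, the glial cells that support neurons and supply them with cholesterol, with 1 single-colour Affymetrix array for each of 7 animals. Of these, 3 CETP transgenic mice had received 2 months of a diet with 1% cholesterol, between 2 and 4 months of age. Another 2 CETP mice carried a standard-diet label, and 2 wild-type mice had received standard food. The CETP mice, of strain B6.CBA-Tg(CETP)5203Tall/J, express human CETP, cholesteryl ester transfer protein, which moves lipids between plasma lipoproteins and is missing in mice. According to the series' design text the cholesterol diet induces its expression. The growth protocol assigns the cholesterol diet to the transgenic mice without exception, so only a sample label places the other CETP mice on standard food. Ages are given for the cholesterol diet alone. All groups share the purification, a magnetic ACSA-2 selection from whole brain that gave a purity of more than 70% by flow cytometry for GFAP. Whole-brain tissue can include the olfactory bulb, while the sensory neurons that use these receptors lie in the nose.

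Odorant receptors are G protein-coupled receptors of the sensory neurons in the main olfactory epithelium, where each neuron expresses a single receptor gene and signals through adenylyl cyclase and a cyclic nucleotide-gated channel. Vomeronasal receptors detect pheromones and other social cues in the vomeronasal organ. The type 1 receptors there work with the G protein subunit Gnai2, and the type 2 receptors, which have a long extracellular domain, work with Gnao1. These gene families are among the largest in the mouse and lie in dense clusters of similar copies. RefSeq (GRCm38.p6) lists 1110 protein-coding Olfr, 230 Vmn1r and 123 Vmn2r genes. Receptors that carry no name in the table were not analysed here.

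The similarity of the copies limits what a probe set names. Only 63 of the 124 entries carried a single symbol, 53 of them Olfr, 8 Vmn1r and 2 Vmn2r. The other 61 named several genes, either joined by a slash (20) or marked as including others (41), and 14 probe sets shared the entry Vmn1r180 (includes others). Within the 14 there were 2 pairs with identical values on every array, each of which holds 1 measurement. RefSeq matched 62 of the 63 single symbols, each on the chromosome named by the probe set's ID, and Olfr900 was not found there. By those IDs the members lay on 16 chromosomes, with 74 of them on chromosomes 2, 7 and 9.

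Start regions are shown for 4 members named in the results, because homeodomain sites near the start are a known feature of odorant receptor genes. Such sites bind Lhx2, a transcription factor these genes require in olfactory neurons. Each run covers 250 bases before to 50 after the start annotated by RefSeq (GRCm38.p6), read 5′ to 3′ on the gene's strand. Capitals mark the motif TAATTG, in either orientation, and an ATG at base 251, where the annotated start is the start codon itself.
Olfr914, chr9:38606217-38606516, plus strand: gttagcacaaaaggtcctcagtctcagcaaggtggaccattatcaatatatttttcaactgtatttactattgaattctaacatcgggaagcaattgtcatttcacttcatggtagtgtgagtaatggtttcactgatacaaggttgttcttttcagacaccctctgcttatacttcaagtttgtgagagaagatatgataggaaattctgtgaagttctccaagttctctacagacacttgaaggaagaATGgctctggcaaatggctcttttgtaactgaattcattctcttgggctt
Olfr51, chr11:51006724-51007023, plus strand: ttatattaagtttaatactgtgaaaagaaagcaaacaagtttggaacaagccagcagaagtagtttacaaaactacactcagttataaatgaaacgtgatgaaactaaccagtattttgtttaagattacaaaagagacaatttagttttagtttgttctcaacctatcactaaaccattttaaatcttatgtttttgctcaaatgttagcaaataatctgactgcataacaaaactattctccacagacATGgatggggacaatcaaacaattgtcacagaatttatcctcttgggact
Olfr544, chr7:102488258-102488557, minus strand: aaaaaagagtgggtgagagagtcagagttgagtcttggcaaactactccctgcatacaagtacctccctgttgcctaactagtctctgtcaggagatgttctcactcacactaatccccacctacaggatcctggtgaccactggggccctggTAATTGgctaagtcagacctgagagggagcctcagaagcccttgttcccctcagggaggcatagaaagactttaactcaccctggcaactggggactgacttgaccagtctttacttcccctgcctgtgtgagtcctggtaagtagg
Olfr1107, chr2:87072174-87072473, minus strand: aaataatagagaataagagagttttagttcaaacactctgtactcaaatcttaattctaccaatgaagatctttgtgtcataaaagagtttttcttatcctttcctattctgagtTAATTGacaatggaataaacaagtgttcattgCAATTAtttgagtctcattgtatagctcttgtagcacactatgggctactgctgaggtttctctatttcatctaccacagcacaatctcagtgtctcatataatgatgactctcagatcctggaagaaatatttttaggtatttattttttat
Olfr914 gave the highest signal of the single-symbol members, Olfr51 the smallest p of them between CETP and wild type, Olfr544 is known outside the nose, and Olfr1107 holds the motif at 2 positions. A window was at hand for 52 single-symbol members. Of the 44 windows of member Olfr genes, 8 held TAATTA and 9 held TAATTG, both strands searched, and 16 (36.4%) held at least 1 of these 2 motifs, which can overlap. The share was 37.3% over the 948 windows of all Olfr genes and 12.4% over all 32851 windows. Of the 9 windows of member Vmn genes, 5 held at least 1 of the motifs. Over all windows of each family the share was 19.0% for Vmn1r and 28.2% for Vmn2r. An ATG stood at the start in 29 of the 44 Olfr windows, so in these the window precedes the coding sequence and may miss the true promoter. A match describes these letters only.

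On every array the receptor probe sets lay low in the range of the 5222 negative control entries. The median over the 124 was 5.62, 5.50 and 5.81 on the log2 scale on the CETP cholesterol arrays, 5.26 and 5.37 on the CETP standard-diet arrays, and 5.49 and 5.67 on the wild-type arrays. The negative control medians ran from 7.48 to 7.69, close to the medians of all probe sets, 7.51 to 7.59, so they mark no floor of signal. The receptor median minus the negative control median ran from -2.34 to -1.74. The receptor median fell between the 12.4th and the 19.5th percentile of the negative controls of its own array.

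None of the 868 receptor values exceeded the 95th percentile of the negative controls of its array, which lay between 11.8 and 12.2, and none exceeded the 90th percentile. Over the negative control median there were 36 values, between 4 and 8 of the 124 on an array. Of the 124 receptor probe sets, 113 (91.1%) stayed under that median on all 7 arrays, compared with 24.2% of the 1654 other probe sets of the table and 44.3% of all 22206. For all probe sets, between 8.43% and 11.1% exceeded the 95th percentile. Signals of different probe sets depend on their probes as well as on RNA, so these positions describe signal and not amounts of transcript. How a negative control entry is built is not given in the sources used here, and such entries spread more widely (SD 2.31 to 2.39) than the receptor probe sets did (SD 0.929 to 1.04).

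**Figure D1:**
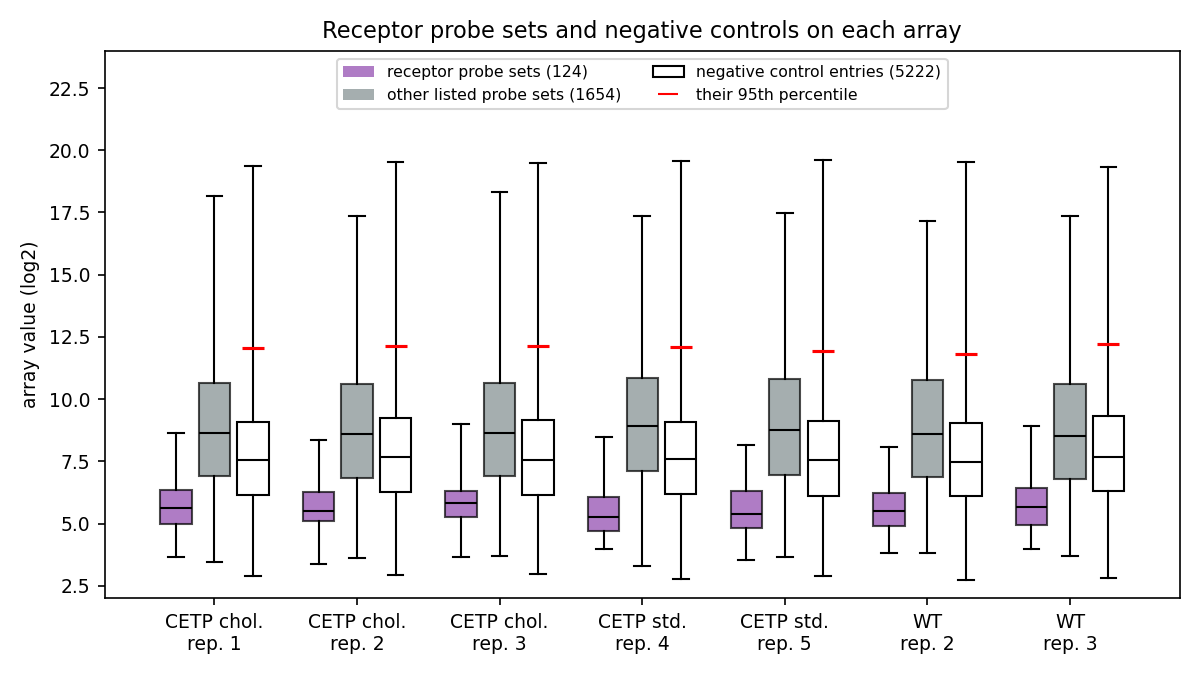
Array values (log2, vertical axis) of the 124 receptor probe sets, the 1654 other listed probe sets and the 5222 negative control entries on each of the 7 arrays, with boxes from the 25th to the 75th percentile, a line at the median, whiskers to the lowest and highest value, and a red mark at the 95th percentile of the negative controls. On every array the whole receptor box lies under the negative control median, and its upper whisker, at 8.99 or less, lies under the red mark.

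Markers of astrocytes lay high on the same scale. Astrocyte genes in the table were 2 of the 14 markers listed, the transcription factor gene Sox9 and the glutamate transporter gene Slc1a3, which encodes GLAST, the protein by which the labels describe the purified cells. Sox9 measured 15.29, 14.43 and 15.31 on the CETP cholesterol arrays, 14.68 and 14.70 on the CETP standard-diet arrays, and 14.71 and 14.44 on the wild-type arrays. It lay at the 98.8th percentile of the negative controls or above on every array, and Slc1a3 at the 92.6th or above.

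Of 21 genes of the olfactory sensory neuron's machinery and identity, 1 was in the table, Lhx2. It measured 13.21, 12.81 and 13.45 on the CETP cholesterol arrays, 12.41 and 12.81 on the CETP standard-diet arrays, and 13.39 and 12.23 on the wild-type arrays, all above the 95th percentile of the negative controls. Lhx2 is also a developmental regulator of the forebrain. The defining markers Omp, Gnal, Adcy3 and Cnga2 were not analysed here, so the part of olfactory neurons in any signal was not tested. Of 18 vomeronasal genes 1 was in the table, Fpr-rs6, a formyl peptide receptor gene of the vomeronasal organ, which averaged 4.90 and never exceeded the negative control median.

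Other families that adult astrocytes are not known to use did not all lie as low. Beside Fpr-rs6 there were 4 probe sets of other chemoreceptor families, and 3 were under the negative control median throughout. The exception, the bitter taste receptor gene Tas2r125, averaged 7.94. Families of skin, hair, gut, germ cells and glands gave 20 measurements from 21 probe sets, since a pair for KRTAP3-3 had identical values, and 10 of the 20 were under the negative control median on every array. Lce1a2, a gene of the skin's cornified envelope, averaged 11.66, and Krtap5-1, a hair keratin-associated protein gene, 11.05, both more than any receptor probe set.

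Among the members, means over the 7 arrays ran from 4.13 to 8.45 with a median of 5.53. The family medians were 5.54 for Olfr, 5.67 for Vmn1r and 5.28 for Vmn2r. Numbers that stayed under the negative control median were 68 of 75, 32 of 36 and 13 of 13.

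**Figure D2:**
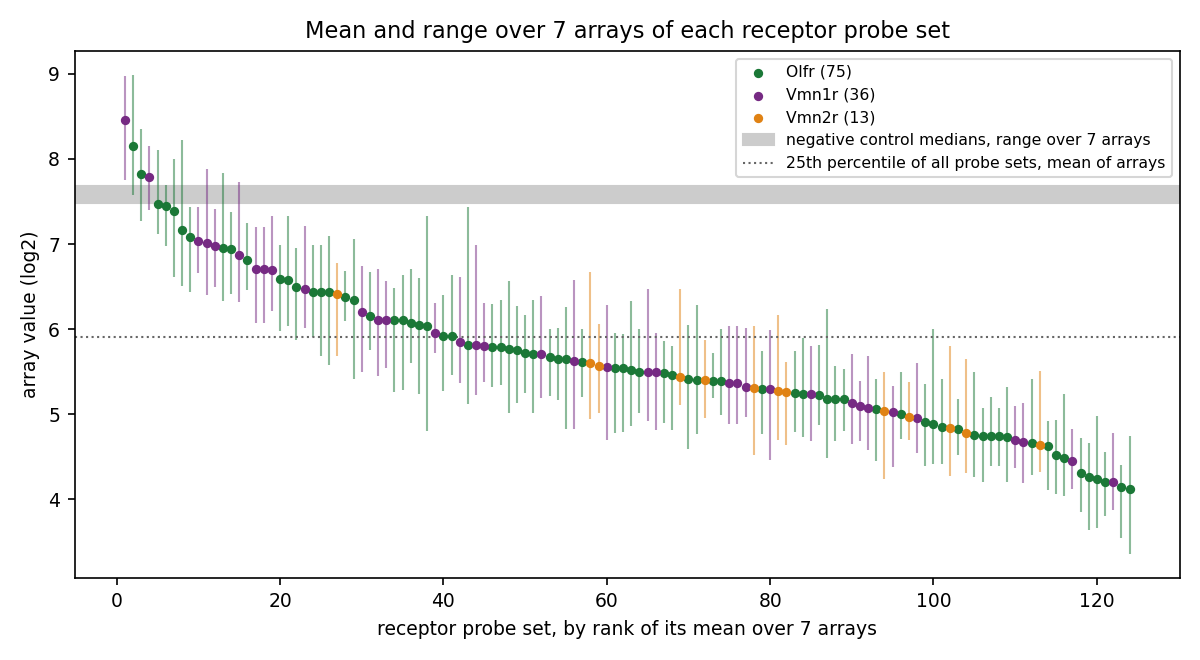
Mean (point) and range over the 7 arrays (line) of each of the 124 receptor probe sets (array value, log2, vertical axis), ordered by mean and coloured by family, with a grey band for the negative control medians (7.48 to 7.69). Only the 4 highest means lie over the band, and no family forms a group of its own.

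Olfr914, from the odorant receptor cluster on chromosome 9, was the single-symbol member of highest signal. It measured 8.40, 7.98 and 8.99 on the CETP cholesterol arrays, 7.98 and 7.92 on the CETP standard-diet arrays, and 7.58 and 8.20 on the wild-type arrays. All 7 values exceeded the negative control median of their array, and the groups overlapped. Only 1 other member did the same, the multi-gene entry Vmn1r171 (includes others), named here after its values were seen, with 8.63, 8.37 and 8.97 on the CETP cholesterol arrays, 8.47 and 7.75 on the CETP standard-diet arrays, and 8.07 and 8.90 on the wild-type arrays.

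Olfr549, one of the class I receptors clustered on chromosome 7, measured 8.01, 7.86 and 8.35 on the CETP cholesterol arrays, 7.27 and 7.58 on the CETP standard-diet arrays, and 7.71 and 8.02 on the wild-type arrays. Olfr1507, the odorant receptor gene studied as a target of the H enhancer on chromosome 14, measured 7.11, 7.24 and 7.53 on the CETP cholesterol arrays, 7.70 and 8.11 on the CETP standard-diet arrays, and 7.22 and 7.39 on the wild-type arrays. Olfr549 was over the negative control median on 6 arrays and Olfr1507 on 2, both on the CETP standard-diet arrays. At the other end of the odorant receptors, Olfr1137 measured 3.86, 3.36 and 4.10 on the CETP cholesterol arrays, 4.00 and 4.75 on the CETP standard-diet arrays, and 4.17 and 4.64 on the wild-type arrays.

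Of the 8 single-symbol Vmn1r members, Vmn1r67 had the highest mean signal. It measured 7.07, 7.41 and 7.44 on the CETP cholesterol arrays, 6.66 and 6.94 on the CETP standard-diet arrays, and 6.89 and 6.80 on the wild-type arrays. Vmn1r227 averaged 6.11, Vmn1r32 averaged 5.49 and Vmn1r81, the lowest, averaged 4.20 on the log2 scale. None of these 4 exceeded the negative control median on any array.

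Of the type 2 receptors only Vmn2r76 and Vmn2r90 carried a single symbol. Vmn2r76 measured 5.11, 5.30 and 5.24 on the CETP cholesterol arrays, 5.25 and 6.47 on the CETP standard-diet arrays, and 5.41 and 5.29 on the wild-type arrays, with CETP standard-diet replicate 5 alone above the rest. Vmn2r90 averaged 5.04. The 4 probe sets of the entry Vmn2r116 (includes others), whose lead gene encodes the receptor for a male pheromone of tear fluid, averaged 4.78 to 5.40.

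Of 5 odorant receptors listed for reported roles outside the nose, 1 was a member, Olfr544, a class I receptor studied in liver and fat tissue. It measured 6.14, 6.09 and 5.56 on the CETP cholesterol arrays, 5.46 and 5.74 on the CETP standard-diet arrays, and 5.77 and 6.64 on the wild-type arrays. It stayed under the negative control median on each array, and the difference between the 5 CETP arrays and wild type was -0.41 ± 0.27 (SE, limma adjusted p = 0.707). Without wild-type replicate 3 that difference was 0.02, and without wild-type replicate 2 it was -0.84, so its direction rests on 1 array.

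**Figure D3:**
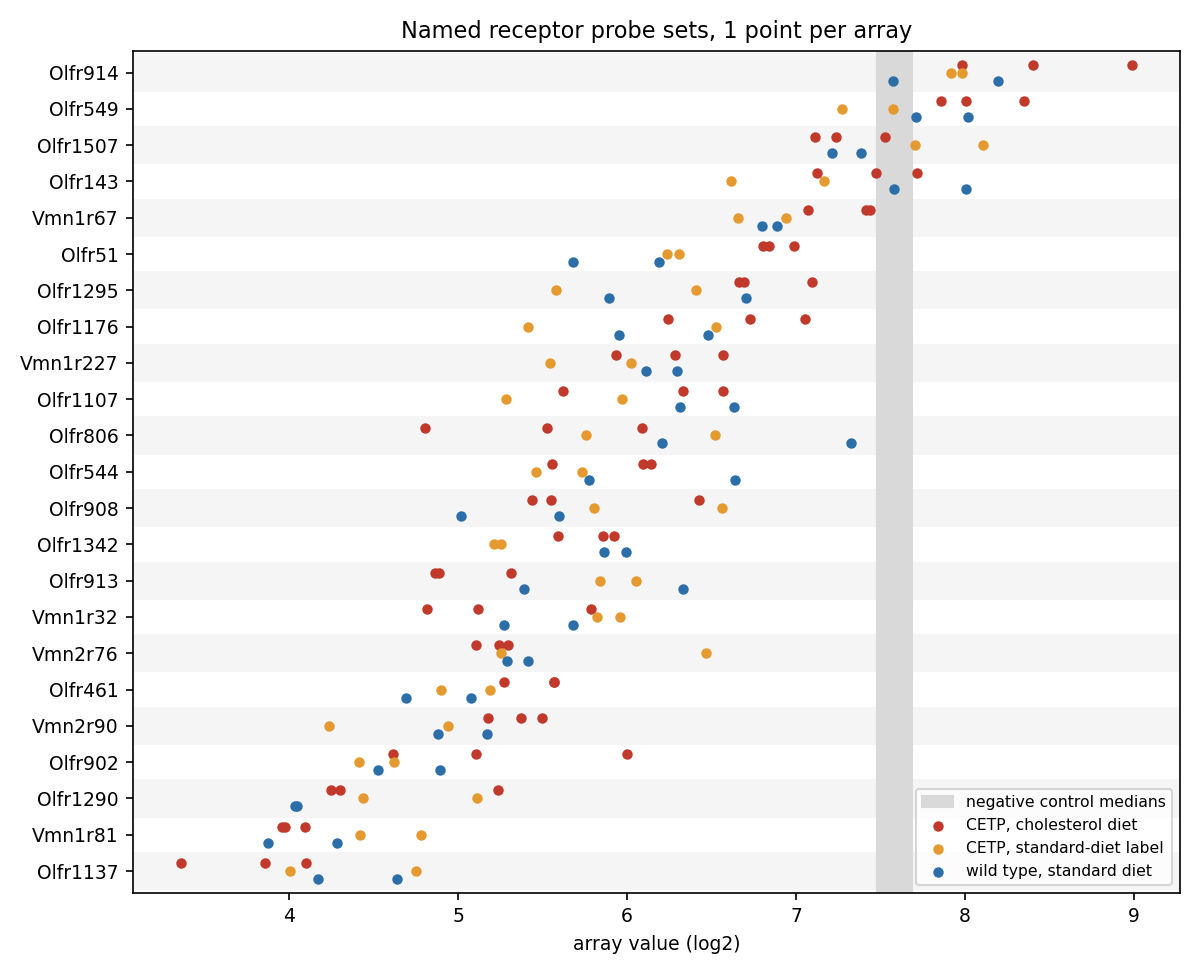
Array values (log2, horizontal axis) of the 23 receptor probe sets named by rule, 1 point per array, with groups in 3 colours and the range of negative control medians (7.48 to 7.69) as a grey band. The CETP and wild-type points overlap for 21 of the 23. Over all probe sets these groups did not overlap for 5.12% on the higher side and 8.53% on the lower. The CETP diet groups do not overlap for 11, beside 9.91% higher and 8.56% lower over all probe sets. Some of the 23 were named for small p or a large diet difference, on which the table was selected. These counts follow in part from that choice. Points to the right of the band belong to Olfr914, Olfr549, Olfr1507 and Olfr143.

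The first comparison set the 5 CETP arrays against the 2 wild-type arrays, which asks whether receptor signal differs with genotype. The table had been selected on the difference between the CETP diet groups. With groups weighted by their number of arrays, the comparison with wild type is uncorrelated with that difference if spreads are equal, and it was therefore the one tested. No receptor probe set passed an adjusted p of 0.05 by limma, and neither did any of the 22206 (0% called). The smallest adjusted p was 0.496 among the members and 0.459 overall. An unadjusted p under 0.05 was reached by 5 of 124 members (4.03%), where the share over all probe sets was 8.32%. Of the 5, 2 were higher in CETP (background 3.17%) and 3 lower (background 5.15%). Over all members, 58 had higher and 66 lower means in CETP, and the median log2 difference was -0.01 beside -0.05 over all probe sets. The median over members averaged 5.51 ± 0.21 on the CETP arrays and 5.58 ± 0.13 on the wild-type arrays (SD over arrays, n = 5 and 2). In bulk RNA, fewer cells of a type and less RNA per cell cannot be told apart.

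The CETP and wild-type arrays did not overlap for 3 members on the higher side, where the background was 5.12% of all probe sets, and for 1 on the lower side, where it was 8.53%. Olfr51 was one of the 3. It measured 6.84, 6.80 and 6.99 on the CETP cholesterol arrays, 6.24 and 6.31 on the CETP standard-diet arrays, and 5.68 and 6.19 on the wild-type arrays. The log2 difference was 0.70 ± 0.20 (SE), with an adjusted p of 0.496 by limma, and came to 0.45 without wild-type replicate 2. The gap between the nearest CETP and wild-type arrays was smaller than that between the 2 wild-type arrays.

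The multi-gene entry Vmn2r101 (includes others), named after its values were seen, measured 5.66, 5.45 and 5.34 on the CETP cholesterol arrays, 6.002 and 6.677 on the CETP standard-diet arrays, and 4.95 and 5.10 on the wild-type arrays, a log2 difference of 0.80 ± 0.22 (limma adjusted p = 0.496). Olfr1290, the third, measured 4.25, 4.30 and 5.24 on the CETP cholesterol arrays, 5.11 and 4.44 on the CETP standard-diet arrays, and 4.04 and 4.05 on the wild-type arrays, a log2 difference of 0.62 ± 0.30 (limma adjusted p = 0.626). Each of the 3 had its lowest values on the wild-type arrays, which is how they were picked. On the same side Olfr461 had a difference of 0.42 ± 0.20 and Olfr908 one of 0.65 ± 0.32, with groups that overlapped. Without wild-type replicate 3 the difference of Olfr461 was 0.22, and without wild-type replicate 2 that of Olfr908 was 0.36.

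On the lower side, Olfr806 of the chromosome 10 cluster measured 4.80, 5.53 and 6.09 on the CETP cholesterol arrays, 5.76 and 6.52 on the CETP standard-diet arrays, and 6.21 and 7.33 on the wild-type arrays. Its log2 difference of -1.03 ± 0.40 had an adjusted p of 0.560 by limma, the groups overlapped, and its range of 2.53 over the arrays was the widest of all members. The difference was -0.47 without wild-type replicate 3 and -1.59 without wild-type replicate 2. Olfr143, of the chromosome 9 cluster, measured 7.47, 7.13 and 7.72 on the CETP cholesterol arrays, 6.62 and 7.17 on the CETP standard-diet arrays, and 7.58 and 8.01 on the wild-type arrays. It differed by -0.57 ± 0.24 (limma adjusted p = 0.593), Olfr1342 by -0.36 ± 0.18 and Olfr1107 by -0.52 ± 0.29, all with overlapping groups. Without wild-type replicate 3 the difference of Olfr143 was -0.36. The 1 member whose CETP arrays all lay lower than wild type was a probe set of the entry Vmn1r180 (includes others), with 5.80, 5.35 and 5.88 on the CETP cholesterol arrays, 5.23 and 5.46 on the CETP standard-diet arrays, and 5.96 and 6.99 on the wild-type arrays. Its difference was -0.93, and -0.41 without wild-type replicate 3 or -1.45 without wild-type replicate 2.

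**Figure D4:**
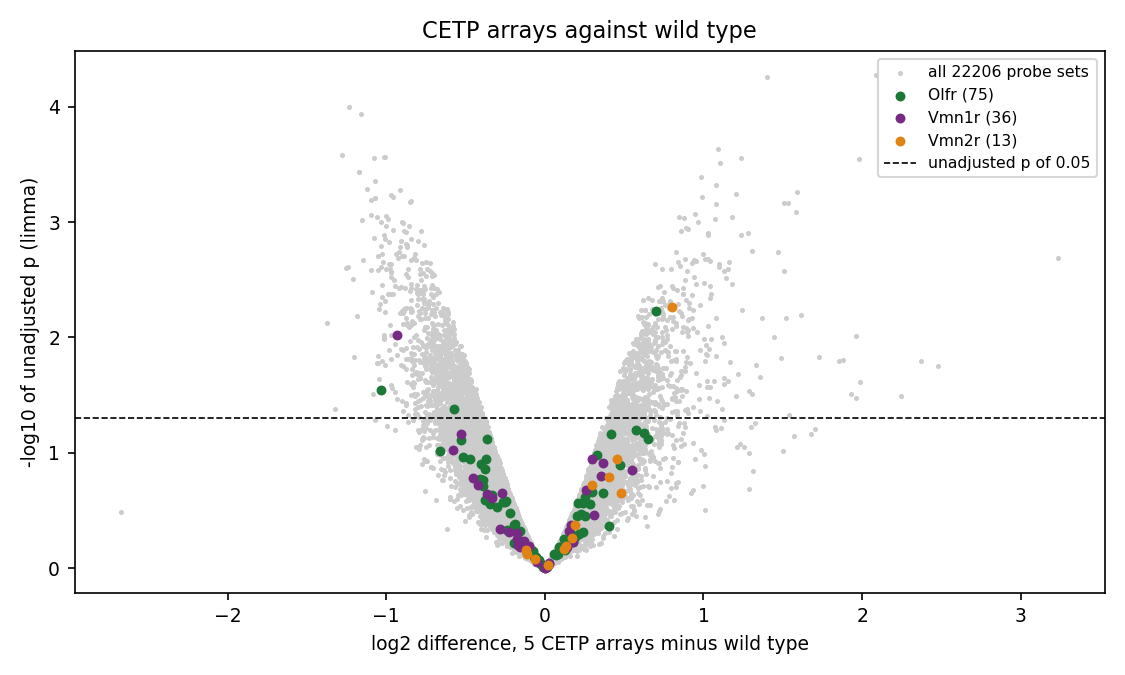
Log2 difference between the 5 CETP arrays and wild type (horizontal axis) against -log10 of the unadjusted limma p (vertical axis) for all 22206 probe sets in grey and the receptor families in colour. The 5 receptor probe sets over the dashed line lie inside the grey cloud.

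The 2 wild-type arrays gave a view that the choice of members had not used. Between them, 77 of 124 members (62.1%) were higher on replicate 3, compared with 47.4% of all probe sets and 41.3% of the other listed ones. The receptor median was 5.49 on replicate 2 and 5.67 on replicate 3, and the negative control median 7.48 and 7.69. The 25th percentile of all probe sets was also higher on replicate 3, while their median was not (7.59 and 7.55). Members were not compared with other probe sets of similar signal, so whether this share is particular to receptors was not tested. The median absolute difference between the 2 arrays was 0.39 for members, 0.35 for the other listed probe sets and 0.32 for all. The residual SD of the fit had a median of 0.37 for members, 0.38 for the other listed probe sets and 0.26 for all. This SD and the following correlations also use the CETP arrays on which the table was selected. They are therefore not independent of the choice of members. Correlations between pairs of arrays ran from 0.747 to 0.880 across the 124 members and from 0.977 to 0.992 across all probe sets. The quartiles of the members lay within 4.71 to 6.44 and those of all probe sets within 5.88 to 9.97. A correlation depends on such a spread, so the 2 ranges do not compare reproducibility. These are across probe sets, which are not independent replicates.

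The next comparisons set each CETP group against wild type. They share the wild-type arrays with each other, and each uses CETP arrays on which the table was selected, so their counts are given as a description. For CETP mice on the cholesterol diet, which the design text sets against wild type, 75 of 124 members had higher means than wild type, with a median log2 difference of 0.14 beside -0.05 over all probe sets. That median was 0.065 without CETP cholesterol replicate 3 and 0.22 without wild-type replicate 3. An unadjusted p under 0.05 was reached by 15 of 124 members, where the share over all probe sets was 8.68%. Of the 15, 11 were higher (background 3.37%) and 4 lower (background 5.31%). The groups did not overlap for 24 of 124 members on the higher side (background 9.98%) and 9 on the lower (background 15.1%). For the standard-diet label 35 of 124 were higher, with a median of -0.18 beside -0.05. An unadjusted p under 0.05 was found for 12 of 124, where the share over all probe sets was 5.31%. Of the 12, 3 were higher (background 2.43%) and 9 lower (background 2.89%). Here the groups did not overlap for 9 of 124 members on the higher side (background 12.2%) and 37 on the lower (background 19.3%). The median for the standard-diet label was -0.28 without wild-type replicate 2. No member and no probe set at all passed an adjusted p of 0.05 by limma in either comparison (0% called).

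Between the CETP diet groups, the difference that the table was selected on, 90 of 124 members were higher on the cholesterol diet and 34 lower. Nothing can be read from the sizes, since the table reaches down to 1.4-fold. The absolute differences of group means ran from 0.14 to 1.14 with a median of 0.53, and some lie under the table's limit because its folds were taken from biweight averages and not from means. Of the other 1654 listed probe sets 41.1% were higher on the cholesterol diet, and of all probe sets 49.7%. The fit gave an unadjusted p under 0.05 for 42 of 124 members, where the share over all probe sets was 3.06%. Of the 42, 34 were higher (background 1.36%) and 8 lower (background 1.7%), counts that the selection sets. The diet groups did not overlap for 49 members on the higher side and 12 on the lower, where the background was 9.91% and 8.56% of all probe sets. By family, 59 of 75 Olfr, 21 of 36 Vmn1r and 10 of 13 Vmn2r probe sets were higher.

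CETP standard-diet replicate 4, the array of lowest receptor median, also had the highest median of the microglial genes in the table. The 9 named microglial genes, of 12 listed, had a median of 7.44, 6.99 and 7.97 on the CETP cholesterol arrays, 10.60 and 7.05 on the CETP standard-diet arrays, and 6.90 and 6.40 on the wild-type arrays. Endothelial markers, 5 of 10, had a median of 9.70 on that array and 8.43 to 8.99 on the others. These markers come from the table selected on the CETP diet difference, so gaps between those groups are set by that choice. The part of microglia and endothelium in the receptor differences was not tested. Of the neuronal markers 2 of 10 were in the table, with array medians of 7.65 to 8.22, and of the oligodendrocyte markers only Olig2, at 12.80 to 14.25. Of the 8 listed genes of olfactory ensheathing glia, the glia of the olfactory nerve and bulb, Frzb measured 8.14, 11.93 and 10.03 on the CETP cholesterol arrays, 10.67 and 10.49 on the CETP standard-diet arrays, and 7.43 and 6.61 on the wild-type arrays. Fabp7, also a gene of astrocytes, averaged 15.32.

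The largest differences between the diet groups among single-symbol members were found in both directions. This ranks the values that the table was selected on and is a description only. Olfr1295 measured 6.69, 6.66 and 7.09 on the CETP cholesterol arrays and 6.41 and 5.58 on the CETP standard-diet arrays, and Vmn2r90 measured 5.50, 5.18 and 5.37 on the CETP cholesterol arrays and 4.94 and 4.24 on the CETP standard-diet arrays. Olfr913 measured 4.86, 5.31 and 4.89 on the CETP cholesterol arrays and 6.05 and 5.84 on the CETP standard-diet arrays. In wild type Olfr913 measured 6.33 and 5.39, a wider gap than within either CETP group. Wide ranges over the arrays were also found for Olfr1176 (1.64) and Olfr902 (1.59).

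Of 4 pairs of neighbouring genes, 3 had opposite signs between the diet groups. The table was selected on this difference, so neighbours with small differences cannot appear, and the signs are given as a description. Olfr913 and Olfr914, next to each other among the protein-coding genes of RefSeq, averaged 5.52 and 8.15, and their differences between the cholesterol diet and the standard-diet label were -0.92 and 0.51. The pairs Olfr805 and Olfr806 (0.52 and -0.67) and Olfr1136 and Olfr1137 (0.43 and -0.60) also had opposite signs, while Olfr1176 and Olfr1178 (0.70 and 0.45) had the same sign. Along 1 stretch of chromosome 9 with 11 listed odorant receptor probe sets, means ran from 4.74 to 8.15. In the stretch 7 were higher on the cholesterol diet than on the standard-diet label and 4 lower, and 8 had higher means on the 5 CETP arrays than in wild type.

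**Figure D5:**
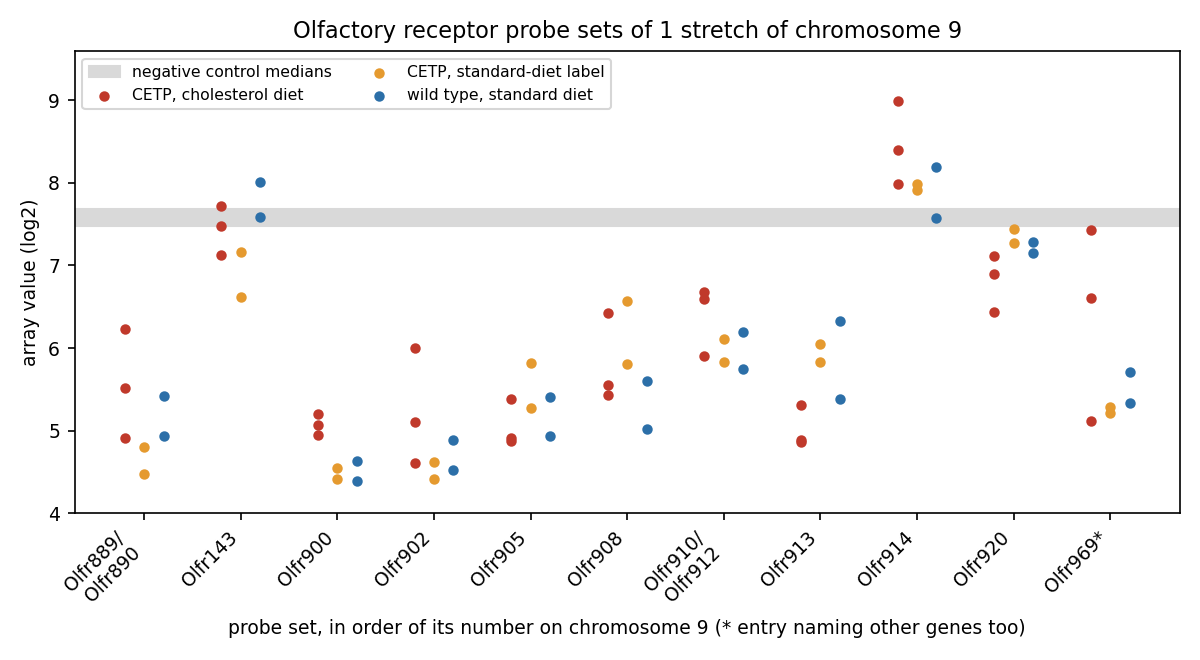
Array values (log2, vertical axis) of the 11 listed odorant receptor probe sets of 1 stretch of chromosome 9, in the order of their numbers (horizontal axis), 1 point per array with groups in 3 colours and the range of negative control medians as a grey band. Olfr914 and its neighbour Olfr913 average 8.15 and 5.52, and the CETP and wild-type points overlap for all 11 probe sets.

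Probe sets that share an entry varied as well. The 14 of Vmn1r180 (includes others) had means of 4.67 to 7.78, with 5 higher and 9 lower on the cholesterol diet than on the standard-diet label, and 2 higher and 12 lower on the CETP arrays than in wild type. The 5 of Vmn1r214 (includes others) had means of 5.24 to 7.01, with 4 higher and 1 lower on the cholesterol diet. All 4 of Vmn2r116 (includes others) were higher on the cholesterol diet and on the 5 CETP arrays, by 0.17 to 0.45 log2 units against wild type. Such probe sets can share probes or transcripts and are not independent.

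The rule left out 18 listed receptor entries that carry other symbols, most of them human-style names such as OR7A5. Their means ran from 4.53 to 7.31 with a median of 5.66, within the range of the 124 members.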

How the data were processed

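Values were log2 array values made by the authors and deposited as a table of 28846 entries, of which 22206 were transcript cluster probe sets and 5222 negative control entries. Per the labels' protocols, biotinylated cRNA came from 10 ng of RNA by Affymetrix's Pico procedure, while how the values were summarized or normalized is not given in the sources used here. The authors' deposited fold table, whose score column holds signed linear folds and whose notice names QIAGEN per the file headers, gave symbols only. Its folds equalled (within 0.01) the biweight difference of CETP standard-diet over CETP cholesterol arrays for 99.9% of 1778 entries, all 124 members included, which also fixes the log base as 2.

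All 22206 probe sets were fitted with 3 group means over the 7 arrays, each from its own animal, in limma 3.58.1 (R 4.3.3; 4 residual and 5.38 prior degrees of freedom), with Benjamini-Hochberg adjustment. In simulated data for 5 CETP arrays against wild type, with 200 of 22206 probe sets changed, the fit recovered 34.5% of 2-fold and 100% of 4-fold changes at an adjusted p of 0.05. The changed probe sets were drawn from all, whose residual SD had a median of 0.26 beside 0.37 for members. Recovery among members alone was not simulated. Levels were computed in pandas 2.3.3 and numpy 2.4.6 under Python 3.11.15 and drawn with matplotlib 3.10.9. The number of arrays limits precision. The members, lists and rules were chosen with earlier results of these data known.

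Named members were, per family, the 3 single-symbol probe sets of highest and the 1 of lowest mean, the 4 per direction of smallest p between CETP and wild type, the 3 of widest range, the 2 per direction of largest diet difference, and members on the list of receptors with roles outside the nose. Gene lists covered astrocytes, olfactory and vomeronasal neurons, ensheathing glia, other chemoreceptors, other tissue-restricted families, neurons, microglia, oligodendrocytes and endothelium. In the tissue-restricted list, 1 name pattern was narrowed and 1 dropped after they had matched unrelated genes. Alternatives were other percentiles, normalizations, priors, weights and filters, subsets of arrays or members, and a replicate block.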

Additional observations from a re-analysis of the deposited data

Results flagged for a closer look

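Among the 5 CETP arrays, Vmn2r76 measured 6.47 in CETP standard-diet replicate 5, while the nearest of the other 4 was 5.30 and the lowest 5.11. The gap made up 0.862 of the whole range, above the limit of 0.71 for 5 samples. It was the only 1 of the 23 named members to stand apart so. Chance gives about 1 in 20 for values that were not chosen on the same arrays. The members come from a table selected on a difference among these 5 arrays, so that rate does not apply to them.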

How the results depend on the processing

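The statement that no receptor probe set passed an adjusted p of 0.05 held in the comparisons of the 5 CETP arrays, of the cholesterol diet and of the standard-diet label with wild type under every normalization, weighting, prior, filter and subset of arrays tried, and at an adjusted p of 0.10. An unadjusted p of 0.05 in its place gave 5, 15 and 12 members, where the shares over all probe sets were 8.32%, 8.68% and 5.31%. Taking the negative control median in place of the 95th percentile gave 36 receptor values over it in place of 0. With each array left out in turn, the values over the 95th percentile and the adjusted calls stayed at 0, and the median receptor level minus the negative control median ran from -2.11 to -2.0005. The count at an unadjusted p of 0.05 for the CETP arrays against wild type moved with the arrays used. It was 5 without CETP cholesterol replicate 1, 6 without replicate 2 and 13 without replicate 3. Counts from fits that leave 1 array in a group are not given, so the full range is not shown. The counts without a cholesterol array were not set beside the shares over all probe sets in the same settings. Nothing about the members is read from them. The median difference of that comparison ran from -0.076 to 0.080, so it has no fixed sign. It was above 0 without CETP standard-diet replicate 4 or 5 or wild-type replicate 3. For the cholesterol diet the median difference ran from 0.065 to 0.22 and for the standard-diet label from -0.28 to -0.12. The difference of Olfr544 ran from -0.84 to 0.024, the last without wild-type replicate 3. Only 4 members passed the filter on dim probe sets, and 0 of them had an unadjusted p under 0.05. Subsets of members with identical probe sets counted once, and single symbols alone in the comparisons, were chosen after seeing the data. Replicate numbers 2 and 3 occur in the cholesterol and wild-type groups. With them as a replicate block 0 members were called and 11 had an unadjusted p under 0.05, again not set beside the share over all probe sets. Deviations of same-numbered arrays correlated at 0.008 and 0.037, and no block could be fitted to the other comparisons, which share fewer than 2 numbers or hold groups without them.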
